A study of Homo sapiens with 10 samples.

Results

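IRF4 (interferon regulatory factor 4) was the gene that the small interfering RNA of this study was directed at, and it is described here library by library. It is 1 gene (ENSG00000137265.16), followed through 1 of the 187626 transcripts listed in the RNA-seq tables. That transcript, ENST00000380956.8, is the main coding transcript and has 5331 bases. It was chosen by its identifier, whatever its values. Other IRF4 transcripts were not tied to the gene by a table used here, so a sum over isoforms and isoform shares were not analysed here. In RefSeq the gene lies on the forward strand of chromosome 6 from 391752 to 411443 (GRCh38.p14), between the protein-coding genes DUSP22 and EXOC2.

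The cells were 501Mel, an established human melanoma line, in every sample. Polyadenylated RNA was sequenced from 3 libraries of cells given the siRNA named siIRF4 and 3 of cells given the control siRNA named siCTRL. In the same line, chromatin immunoprecipitation followed by sequencing (ChIP-seq) located IRF4 that carried an eGFP tag, with 2 ChIP replicates. How the tagged protein was introduced is not given in the sources used here. The siRNA sequences, the dose and the time after transfection are also not given there. The labels do not say whether the RNA libraries came from separate cultures, so p-values measure the spread between these libraries, which may be technical. Markers of the melanocyte lineage and of other cell types were not analysed here, because the tables carry no gene names.

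IRF4 is a DNA-binding transcription factor of the interferon regulatory factor family, best known from lymphocytes and plasma cells, where it steers differentiation and where lymphoid tumours can depend on it. In melanocytes it is a pigmentation gene: MITF, the master regulator of the lineage, acts with TFAP2A (AP-2 alpha) at an enhancer inside IRF4, and IRF4 with MITF activates TYR, which encodes tyrosinase. Members of the family recognise DNA through a GAAA core, often as a repeat of that core in interferon-stimulated response elements, and IRF4 often binds with a partner of the ETS or AP-1 families.

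The stretch before the transcription start is shown because ChIP-seq of IRF4 could reveal binding of the factor at its own gene. The 250 bases before the RefSeq start lie at chr6:391502-391751 (GRCh38.p14, forward strand), and capitals mark the matches described next.
IRF4 promoter: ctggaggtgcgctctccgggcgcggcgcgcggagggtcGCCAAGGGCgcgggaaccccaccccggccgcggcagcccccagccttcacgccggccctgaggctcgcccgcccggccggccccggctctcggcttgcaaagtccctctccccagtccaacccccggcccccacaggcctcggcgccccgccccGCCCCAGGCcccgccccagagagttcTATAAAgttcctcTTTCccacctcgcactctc

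Of these bases, 76.0% are G or C, against a median of 58.0% over the 35116 promoters of the same length in the RefSeq table. The window holds TATAAA, the TATA box letters, from 32 to 27 bases before the start, a match that 10.7% of all promoters hold on either strand. It holds the GAAA core once, on the reverse strand (printed as TTTC) from 19 to 16 bases before the start, and 82.6% of promoters hold that core. The AP-2 letters GCCNNNGGC occur at 2 places, beginning 212 and 58 bases before the start. At least 1 such match is found in 19.8% of promoters and at least 2 in 4.04%. GAAANNGAAA, a paired core of the interferon-stimulated kind (3.02% of promoters), and GGAANNGAAA, an ETS-IRF composite (2.41%), were not among the letters of this window on either strand. The AP-1 letters TGANTCA (6.57%) and the E-boxes CATGTG (9.42%) and CACGTG (6.34%), which MITF recognises, were not there either. These matches describe the letters of the reference sequence and no measured binding.

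IRF4 RNA was present in all 6 libraries, and its level did not separate the libraries by siRNA label. Levels are given as TPM (transcript abundance scaled for length and to a total of 1000000 per library). The library labelled siIRF4 replicate 1 held 15.3 TPM, replicate 2 held 2.13 TPM and replicate 3 held 1.74 TPM. The libraries labelled siCTRL replicates 1, 2 and 3 held 16.5, 3.44 and 3.77 TPM. The library labelled siIRF4 replicate 1 thus sat beside siCTRL replicate 1 and above the other controls, and the groups overlapped. At replicate numbers 1, 2 and 3, siIRF4 was below the siCTRL library of equal number by 7.10%, 38.1% and 53.8%. The labels do not say whether equal numbers are pairs.

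**Figure D1:**
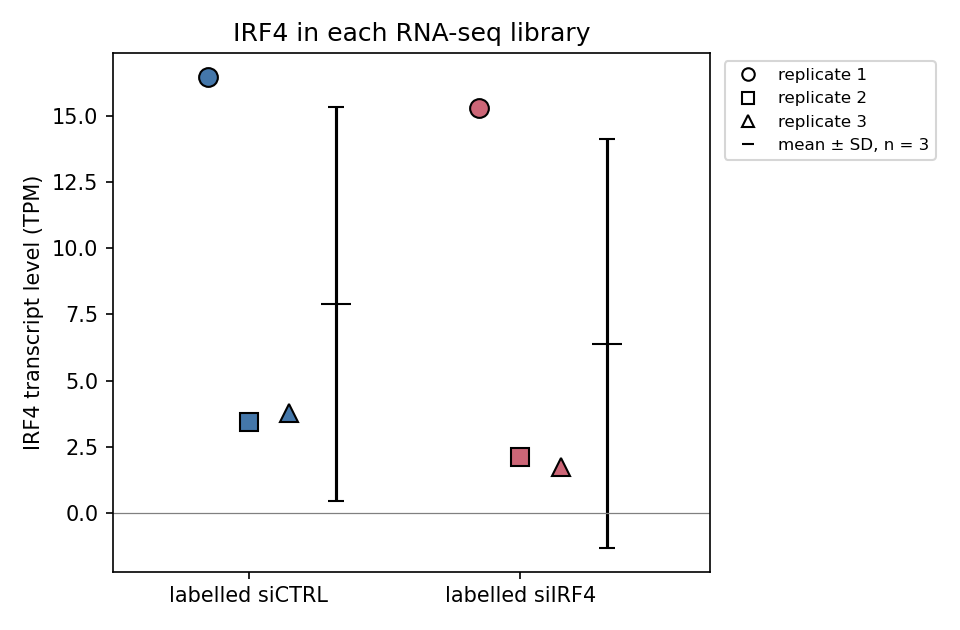
The vertical axis gives the TPM of the IRF4 transcript, and each symbol is 1 library, placed by its label and shaped by its replicate number, with the mean and SD of the 3 libraries beside it. Both libraries numbered 1 sit at 15.3 and 16.5 TPM, while the other 4 sit between 1.74 and 3.77 TPM.

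The level in the library labelled siIRF4 replicate 1 goes against that label when set beside 2 of the 3 controls. It was 4.06 times that of siCTRL replicate 3 and 4.45 times that of siCTRL replicate 2, and it was 7.10% below that of siCTRL replicate 1. Within the siIRF4 label, it was 7.20 times that of replicate 2 and 8.80 times that of replicate 3. Within the siCTRL label, replicate 1 was 4.79 times replicate 2 and 4.37 times replicate 3. One library of each label therefore stood apart from the other 2 of its label, in the same direction.

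The order from high to low was siCTRL 1, siIRF4 1, siCTRL 3, siCTRL 2, siIRF4 2 and siIRF4 3. The step from siIRF4 1 to siCTRL 3 was 2.02 on the log2 scale of TPM, and the other 4 steps between neighbours measured between 0.11 and 0.69. The SD of log2 CPM was 1.71 within siIRF4 and 1.26 within siCTRL. Each SD includes the distance of replicate 1 from the other 2 libraries of its label, so whether neighbours differ beyond replicate error was not tested. Counting error was smaller than any of these steps, since the 95% Poisson intervals of neighbours, taken on the rounded estimated counts, did not overlap. The interval of siCTRL 1 ran from 16.1 to 16.8 TPM and that of siIRF4 1 from 15.0 to 15.7 TPM. At the low end, siIRF4 2 ran from 2.00 to 2.26 TPM and siIRF4 3 from 1.63 to 1.86 TPM. These intervals cover counting error only, and not the uncertainty in how fragments were split between transcripts.

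The estimated counts behind these levels were large. They were 7667, 1064 and 935 fragments in the libraries labelled siIRF4 1, 2 and 3. In siCTRL 1, 2 and 3 they were 8960, 2500 and 1786. As CPM (counts scaled to a library total of 1000000, with no scaling for length), IRF4 stood at 53.6, 7.82 and 6.20 in the siIRF4 libraries and at 58.7, 12.3 and 13.7 in the siCTRL libraries, which is the same order. Among transcripts with a count of at least 1 in the library, IRF4 exceeded 92.3% in siIRF4 1 and 93.0% in siCTRL 1. It exceeded 80.0% in siCTRL 2, 79.8% in siCTRL 3, 73.4% in siIRF4 2 and 70.0% in siIRF4 3. IRF4 thus stood above most transcripts with a count of at least 1 in each library. Outside the libraries numbered 1 its level was only 1.74 to 3.77 TPM. Its place shifted most between the libraries numbered 1 and the rest.

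Depth and fragment length did not move with these levels in a single direction. Totals were between 129989698 and 203758441 estimated counts, with 143091223 in siIRF4 1 and 152672204 in siCTRL 1. The mean fragment length, from 262.7 to 297.3 bases over the libraries, was 271.5 bases in siIRF4 1 and 297.3 bases in siCTRL 1. The share of counts taken by the 10 most abundant transcripts was 5.05% and 5.01% in those libraries, and from 4.75% to 5.10% over all 6. Whether depth, fragment length or this share bears on the IRF4 levels was not tested.

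Compared by label, IRF4 averaged 6.39 ± 7.72 TPM (SD, n = 3) in siIRF4 and 7.89 ± 7.43 TPM (SD, n = 3) in siCTRL. The difference of -1.50 TPM was smaller than either SD. An exact two-sided permutation test over the 20 assignments of 3 of the 6 libraries gave p = 0.5, where the smallest p this design allows is 0.1. In edgeR's quasi-likelihood test, fitted to all 83831 transcripts that passed its filter on low counts, the log2 fold change of IRF4 was -0.28 (SE 1.02), with an unadjusted p of 0.795 and a Benjamini-Hochberg adjusted p that rounded to 1. On the same 6 libraries, limma-voom gave -0.65 (SE 0.95), limma on log2(TPM + 1) gave -0.47 (SE 0.86) and limma on log2(TPM + 0.1) gave -0.62 (SE 0.98), each with an adjusted p that rounded to 1. With the replicate number as a block, edgeR gave -0.64 (SE 0.25), with an unadjusted p of 0.0542 and an adjusted p of 0.997. In the edgeR fit without a block, a log2 fold change lower than that of IRF4 was found for 25.0% of the transcripts tested.

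IRF4 was not called, and the edgeR test without a block called 0 of the 83831 transcripts (0%), with 1791 at an unadjusted p under 0.05. DESeq2 called 192 (0.188% of the 102158 to which it gave an adjusted p), without IRF4 among them. DESeq2 gave IRF4 no p because its Cook's distance in the library labelled siIRF4 replicate 1, 18.7, was above the limit of 18. The next largest distance, 10.7, was in siCTRL replicate 1. The values of siIRF4 lay wholly below those of siCTRL for 3107 transcripts (3.71%), and IRF4 was not one of these.

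In comparisons without a block, single libraries decided the size and the direction of the difference by label. Leaving out 1 library also changed the share of its label taken up by the high library numbered 1. With all 6 libraries and the replicate number as a block, edgeR gave a log2 fold change of -0.64 (SE 0.25). Without the library labelled siIRF4 replicate 1, the edgeR log2 fold change was -2.05 (SE 0.80), with an unadjusted p of 0.0463 and an adjusted p of 0.938. The siIRF4 mean was then 1.93 TPM against 7.89 TPM, and the exact permutation p was 0.5, where the smallest possible was 0.1. That siCTRL mean still included siCTRL replicate 1, at 16.5 TPM. Without siCTRL replicate 1 the direction turned, to 0.86 (SE 1.04, edgeR adjusted p rounding to 1), with 6.39 TPM in siIRF4 against 3.60 TPM in siCTRL. It also turned without siIRF4 replicate 2 (0.14, SE 1.09) and without siIRF4 replicate 3 (0.19, SE 1.03). Without siCTRL replicate 2 it was -0.63 (SE 1.12), and without siCTRL replicate 3 it was -0.60 (SE 1.16).

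With both libraries numbered 1 left out, which was decided after their IRF4 levels were seen, the log2 fold change was -0.92 (SE 0.24), with an unadjusted edgeR p of 0.0149 and an adjusted p that rounded to 1. The remaining 4 libraries gave 1.93 TPM in siIRF4 against 3.60 TPM in siCTRL. Both siIRF4 libraries were then below both siCTRL libraries, and the exact permutation p was 0.333, the smallest that 2 against 2 allows. Since the libraries were left out by the very level compared, this value is a description.

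**Figure D2:**
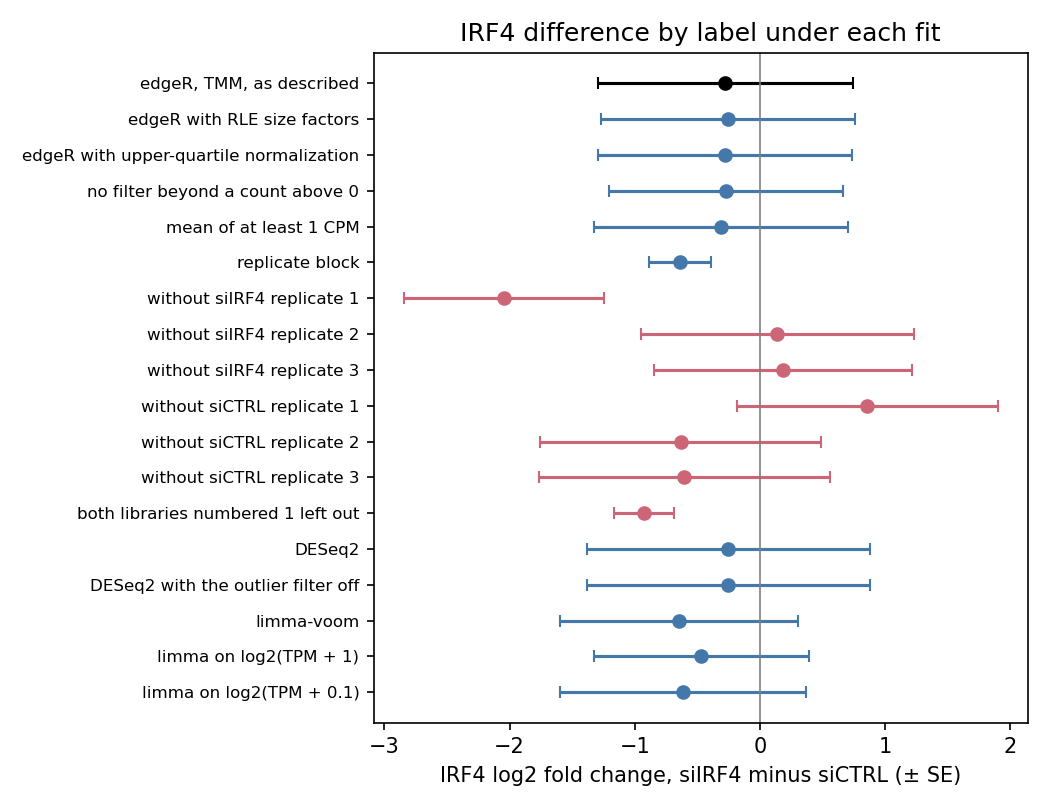
The horizontal axis gives the log2 fold change of IRF4, siIRF4 minus siCTRL, with its SE, and each line is 1 fit: black is the edgeR fit described here, blue are other tools and settings, and red are fits with libraries left out. All fits with the 6 libraries lie below 0, while leaving out a library moves the value between -2.05 and 0.86.

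The spread of IRF4 within the labels was wide for its abundance. Its pooled SD within the labels was 1.50 on the log2 CPM scale. Among the 7513 transcripts whose mean CPM lay within a factor of 2 of that of IRF4 (25.4 CPM), the median of this SD was 0.24, and 99.0% had a smaller one. From the lowest to the highest library, IRF4 spanned 3.24 on the log2 CPM scale, against a median of 0.62 for those transcripts. Of 18544 other transcripts that averaged 5 CPM or more, 295 (1.59%) spanned at least as much.

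Other transcripts followed a pattern like that of IRF4 over the libraries. Likeness was measured as Pearson's r of log2 CPM over the 6 libraries, among those 18544 transcripts, and is a description with no test. The median r was -0.13, an r of at least 0.95 was reached by 156 transcripts (0.841%), and an r of -0.95 or less by 341 (1.84%). Of the 156 transcripts, 10 spanned at least 2 on the log2 scale. The points share their libraries, and with 2 libraries high and 4 low, r rests largely on that gap.

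The transcript most like IRF4 was ENST00000282096.8, of 6076 bases (r = 0.999, Spearman's rho 0.94). It held 73.7, 32.4 and 30.3 CPM in siIRF4 1, 2 and 3, and 73.5, 39.0 and 41.5 CPM in siCTRL 1, 2 and 3. ENST00000367294.3 (r = 0.998) held 115, 52.6 and 47.7 CPM in the siIRF4 libraries and 117, 64.6 and 69.5 CPM in the siCTRL libraries. Both were high in the libraries numbered 1 and spanned 1.28 and 1.29 on the log2 scale, less than IRF4.

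The most opposite transcripts were low in the libraries numbered 1. ENST00000435822.5 (r = -0.997) held 82.2, 129 and 134 CPM in siIRF4 1, 2 and 3, and 79.1, 118 and 110 CPM in siCTRL 1, 2 and 3. ENST00000344111.3 (r = -0.997) held 16.5, 20.2 and 21.1 CPM in the siIRF4 libraries and 16.0, 19.3 and 18.9 CPM in the siCTRL libraries. Their spans were 0.76 and 0.40 on the log2 scale. No gene name stands beside these 4 identifiers in the tables.

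**Figure D3:**
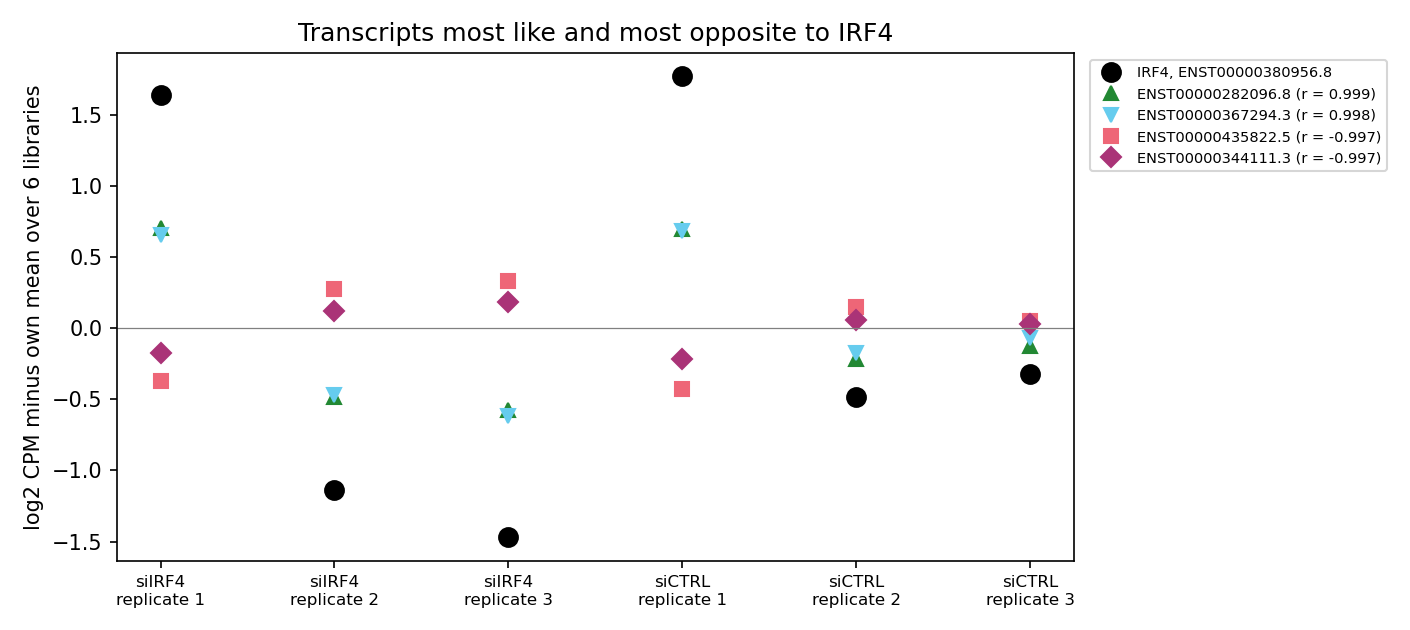
The vertical axis gives log2 CPM minus the transcript's own mean over the 6 libraries, which stand along the horizontal axis, for IRF4 (black) and the 4 transcripts with the highest and lowest r. IRF4 and the 2 alike transcripts are highest in both libraries numbered 1, the 2 opposite ones are lowest there, and IRF4 has the widest span, 3.24.

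ChIP-seq of eGFP-tagged IRF4 asked where the factor sits, and the peak lists were read around its own gene. Over the IRF4 locus itself, taken as chr6:391000-412000 in hg19, neither list held a peak. With 50 kb on each side, each list held 1 peak, and the 2 peaks did not overlap. Both lay before the gene, on the side of its promoter.

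The replicate 1 peak ran over chr6:370721-373199, 2479 bases wide, and ended 17801 bases before the start of the locus. Its score, the authors' own value, was 373.81, rank 1094 of the 7568 peaks in that list and above 85.5% of them. The replicate 2 peak ran over chr6:379785-381263, 1479 bases wide, and ended 9737 bases before the locus. Its score was 165.06, rank 11480 of 12831 and above 10.5% of that list, close to the lowest listed score of 150.01. The peaks were 6586 bases apart, so the stronger peak of replicate 1 had no listed counterpart in replicate 2 at its place.

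Further out, with 100 kb on each side, the lists held 2 and 6 peaks. The other replicate 1 peak (chr6:323815-326654, score 137.99) ended 266 bases before the nearest replicate 2 peak (chr6:326920-328693, score 506.29), so the lists came close there without overlapping. Replicate 2 listed 2 more peaks beside it, at chr6:329594-330862 (score 433.18) and chr6:332433-334015 (score 177.28). The peaks of this group ended 56985 to 64346 bases before the locus. After the gene, replicate 2 listed peaks at 62486 and 86626 bases from the end of the locus (scores 235.64 and 182.74), and replicate 1 listed none.

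**Figure D4:**
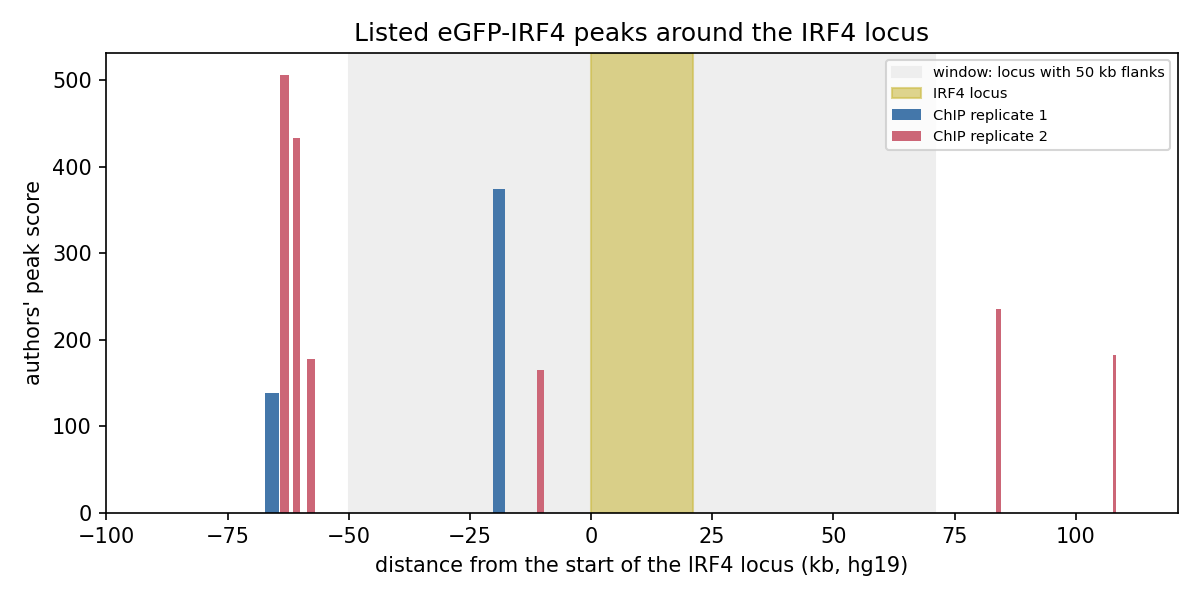
The horizontal axis gives the distance in kb from the start of the IRF4 locus in hg19, and bars are listed peaks, as wide as the peak and as high as the authors' score, for ChIP replicates 1 (blue) and 2 (red). No bar falls on the locus (yellow), 1 bar of each replicate falls in the grey window on the promoter side, and no bars of the replicates overlap.

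The lists begin at different scores, 100.01 in replicate 1 and 150.01 in replicate 2, and hold no read counts. Whether weaker binding lay under these thresholds at the IRF4 locus was not tested.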

How the data were processed

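Groups and replicate numbers come from the sample titles. Per the submitters' processing notes, kallisto, sleuth, Bowtie2, GRCh38 and hg19 were used, with no role or version given. Per the file headers, the RNA-seq tables, 1 per library, hold the estimated count and TPM of each Ensembl transcript, with its length and effective length. The authors' TPM values sum to 1000000 per library. The deposited peak lists hold a score per peak that no source defines. Their contig names are those of hg19, and the caller's version and input use are not given in the sources used here.

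Estimated counts were rounded and tested with edgeR 4.0.16 (quasi-likelihood, TMM, filterByExpr, two-sided, Benjamini-Hochberg adjustment over all transcripts tested, threshold 0.05, no block) in R 4.3.3. The edgeR script was tested on simulated data in which all transcripts shared the same relative variability between libraries. That setting does not represent the wide spread of IRF4. The SE was obtained from the fold change and its F statistic (|log2 fold change| over root F). Log2 CPM used a prior count of 2. Alternatives used DESeq2 1.42.0, limma 3.58.1, limma-voom, other normalizations and filters, the replicate block and left-out libraries. The fragment length is length minus effective length plus 1, as the median over long transcripts. Promoter sequences are from RefSeq (GRCh38.p14). IRF4 and, by the rule for likeness, the 2 transcripts with the highest and the 2 with the lowest r are named, because the tables pair no transcript with a gene. For the same reason the sum over IRF4 transcripts, markers and pathway genes were not analysed here, nor were the 2 input samples. The gene and lists were chosen with earlier results of these data known.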

Additional observations from a re-analysis of the deposited data

How the results depend on the processing

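The log2 fold change of IRF4 by label was -0.28 and no alternative called it: of 17 alternatives, 16 gave an adjusted p, from 0.938 up to values that rounded to 1. Apart from the fits leaving out 1 library, the 11 alternatives were all lower in siIRF4, from -0.92 to -0.25 (DESeq2). The -0.92 came with both libraries numbered 1 left out, as decided after their levels were seen. With all 6 libraries the lowest was -0.65 (limma-voom). Leaving out 1 library, in fits without a block, gave -2.05 to 0.86, with the direction turned in 3 of 6 fits. The difference in TPM, -1.50, ranged from -5.96 to 2.79 over the left-out libraries, turning in the same 3.

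With the replicate number as a block, the log2 fold change was -0.64 (SE 0.25), with an unadjusted edgeR p of 0.0542 and an adjusted p of 0.997. Of equal number, siIRF4 was lower than siCTRL by 7.10%, 38.1% and 53.8% in TPM. Deviations from the label means correlated at 0.20, 0.24 and 0.038 across transcripts for numbers 1, 2 and 3. Equal numbers were not treated as pairs in the main fit, because the labels state no such covariate. Unequal numbers correlated at -0.27 to 0.11, so these values do not settle whether equal numbers are pairs. siIRF4 1 and 2 correlated best with their own number and siIRF4 3 with siCTRL 2.

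The count of 0 transcripts called, of 83831 tested, became 192 with DESeq2, of 102158 given an adjusted p. It became 361 of 108222 with the outlier filter of DESeq2 off (added after the data were seen). With limma on log2(TPM + 0.1) it was 12 of 83831. The cause was not tested. Flanks of 10 kb left 0 peaks in ChIP replicate 1, and flanks of 100 kb gave 2 and 6 peaks in replicates 1 and 2, by construction of the window. Sums over isoforms and per gene were not run.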
